A study of Mus musculus with 23 samples.

Results

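In epiblast-like cells moved into aggregate culture, 94 of 18194 genes measured had at 36 h without cytokine a signal far below that of 0 h in both a line lacking Wnt3 and its wild-type counterpart. The set holds germline genes such as Rhox5, Tdrd12 and Ddx4, genes of the amino acid stress response such as Chac1 and Nupr1, the TGF-beta family ligand Gdf3, and redox enzymes such as Nqo1. Each gene was represented by the probe set with its highest mean, and the genes were selected on 4 arrays, being chosen if log2(signal + 16) at 36 h without cytokine minus 0 h was at most -1.2 in both lines and if the signal exceeded 200 on some array. The rule left out by symbol the Slc, Krt, Col, Lam, Itg, Efn, Eph, Fgf, Fos, Klf, Dnmt and Dppa families and some named genes, among them Egr1, Zfp42 and the germline genes Mael, Sycp3, Dazl and Taf7l, and 10 genes past the same limits were set aside in this way. So the untreated 0 and 36 h values of these genes are a description, and every test below uses other arrays.

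The study set Wnt3-/- cells (KO) beside Wnt3+/+ cells (WT), both male C57BL/6 embryonic stem cell lines with the BV transgenes, a membrane Venus reporter driven by Blimp1 regulatory elements. Stem cells kept in 2i and LIF were turned over 2 days on fibronectin into epiblast-like cells with activin A, bFGF and KSR (0 h), then plated as floating aggregates in serum replacement medium with LIF. The KO aggregates had BMP4 at 500 ng/ml, BMP4 with WNT3A at 50 ng/ml, WNT3A alone or no cytokine, and the WT aggregates had BMP4, WNT3A or no cytokine, with RNA taken at 12, 24 and 36 h. There are 23 arrays, 1 for each line, condition and time. Each genotype is a single line, so an effect of Wnt3 cannot be told apart from other differences between the lines. All later cultures differ from 0 h in medium and in growth as aggregates as well as in time.

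Epiblast-like cells are a culture counterpart of the pregastrulation epiblast, from which BMP4 and WNT3 induce primordial germ cells in the mouse embryo. Many germline genes are held silent in somatic cells by promoter DNA methylation, which is laid down as the epiblast matures, and some are transcribed at low levels in pluripotent cells. The transcription factor ATF4 drives genes for amino acid supply and for the response to stress, and NRF2 drives genes that protect against oxidants.

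Epiblast markers were bright at 0 h, with a summed signal of 34645 in KO and 35216 in WT over all 8 (Pou5f1, Sox2, Otx2, Pou3f1, Fgf5, Dnmt3b, Nodal and Tdgf1). The summed feeder markers, a sign of fibroblasts carried over, stood at 907 at 36 h against 977 at 0 h in untreated KO and at 386 against 851 in untreated WT. The feeder markers did not move together in untreated WT. Thy1 was at 139 at 36 h against 436.5 at 0 h and Dcn at 49.2 against 223. Col1a2 was at 131.6 against 132.5 and Col3a1 at 63.6 against 53.1. Col1a1 and Postn did not exceed 50 on any array. No marker of the 6 cell types checked is among the 94 genes, but for many of them this was fixed in advance. The rule left out Fgf5, Dnmt3b, Krt7, Col1a1, Col1a2 and Col3a1 by symbol. Like Postn, the markers Afp, Apoa1, Ttr, Elf5, Kdr and Zic1 did not exceed 50 on any array, under the limit of 200. Wnt3 itself was dim, between 11.2 and 27.9 in KO and between 10.4 and 146 in WT, and the labels do not say whether its probe set lies in the deleted part. For 6 KO arrays the title and the array name disagree on which held WNT3A and which BMP4 with WNT3A. Id1, a direct BMP target, read 5480, 7591 and 9345 on the arrays titled WNT3A and 186, 256 and 1323 on those titled BMP4+WNT3A, at 12, 24 and 36 h, which goes against the titles, so these groups are called by their titles and nothing is read from their cytokine content. Array medians lay between 36.8 and 41.4. The Gapdh 3' to 5' signal ratio, a sign of RNA quality, was 4.03 for WT with WNT3A at 24 h, 2.68 for untreated KO at 24 h and 2.30 for untreated WT at 36 h, an array of the rule, and between 1.09 and 1.71 on the others. In bulk RNA, fewer cells of a type and less RNA per cell cannot be told apart.

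The rule was met by 1.12% of the 9311 genes whose signal exceeded 200 on some array, counting the 10 set aside by symbol. At its edge, the genes just inside were Hes6 (-1.201 in KO and -1.25 in WT), Tmem259 (-1.204 in KO and -1.61 in WT) and Zfp979 (-1.69 in KO and -1.21 in WT). The genes just outside were Esrp2 (-1.22 in KO and -1.19 in WT), Tex15 (-3.06 in KO and -1.19 in WT) and Dll3 (-2.41 in KO and -1.19 in WT), so a gene can miss by its WT value alone.

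The lowest values relative to 0 h belonged to Rhox5, an X-linked homeobox gene of the testis and placenta. Its signal was 2684, 917, 304 and 88.7 in untreated KO and 1911, 465, 132 and 54.2 in untreated WT at 0, 12, 24 and 36 h, lower at each time than at the one before in both lines. Mt3, a metallothionein, had 596, 91.1, 77.2 and 56.5 in KO and 592, 217, 63.6 and 16 in WT. Mageb16, of the MAGE family, had 564, 232, 77.2 and 39.1 in KO and 605, 141, 51.3 and 32.5 in WT. The KO and WT courses of Mageb16 differed most at 12 h, while those of Mt3 had KO lower at 12 h and higher at 36 h. Rbmxl2, a testis RNA-binding protein, had 709, 343, 88.0 and 34.5 in KO and 639, 375, 135 and 55.7 in WT, and Cyct, the testis form of cytochrome c, had 855, 419, 396 and 135 in KO and 1218, 474, 242 and 126 in WT. At 36 h Mt3, Mageb16 and Rbmxl2 read between 16 and 56.5, around the array medians, while Cyct was still above them.

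Without cytokine the drop was spread over the whole culture. At 12 h the median gene had covered 38.4% of its 0 to 36 h difference in KO and 40.2% in WT, and at 24 h 68.8% in KO and 72.6% in WT. In both lines 71 of the 94 genes were lower at each time than at the one before. The end points of these shares chose the genes, so they describe the shape of the courses only.

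**Figure D1:**
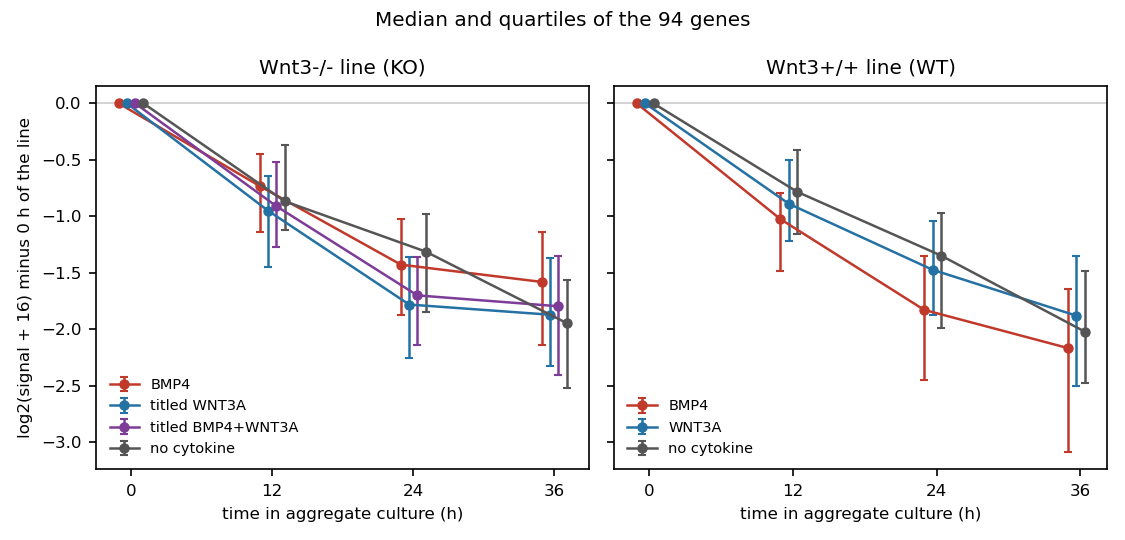
Median (points) and quartiles (bars) over the 94 genes of log2(signal + 16) minus the 0 h array of the same line, by time in culture in hours, for KO (left) and WT (right); each point is 1 array. The untreated 0 and 36 h arrays chose the genes; at 36 h the medians with BMP4 are -1.58 in KO and -2.17 in WT.

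With cytokines, on arrays the rule did not use, most of the genes were also far below 0 h at 36 h. The limit of -1.2 was passed by 68 of the 94 genes in KO with BMP4, where 1.35% of the 9311 bright genes passed it, by 77 in KO titled BMP4+WNT3A (2.43%) and by 77 in KO titled WNT3A (2.35%). In WT it was passed by 83 genes with BMP4 (3.84%) and by 75 with WNT3A (2.61%). All these differences share the 0 h array of their line with the rule, so no test was made. The median difference at 36 h was -1.58 in KO with BMP4, -1.80 in KO titled BMP4+WNT3A, -1.87 in KO titled WNT3A, -2.17 in WT with BMP4 and -1.88 in WT with WNT3A. The plot of medians by time shows KO with BMP4 as the shallowest course at 36 h and WT with BMP4 as the deepest.

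Early and late genes were named by cuts at 50% and 25% of the 12 h share, not as separate groups in the data. The quartiles of that share were 21.4% and 54.4% in KO and 20.4% and 53.5% in WT. In both lines 18 genes had covered at least 50% of the untreated difference by 12 h, among them Chac1, Cth and Trib3 of the amino acid response, the adaptor gene Dok2, Dlc1 and the germline silencing gene Morc1. In both lines 15 genes had covered less than 25% by then, among them Ddx4, the phospholipase gene Pla2g10, the carbonyl reductase gene Cbr3, the bHLH gene Hes6 and the innate immune genes Ifi35, Trim25, Nod1 and Pml. Chac1 lay at 111% in KO and 115% in WT at 12 h, that is, lower at 12 h than at 36 h. Ddx4 lay at 5.79% in KO and 19.4% in WT.

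**Figure D2:**
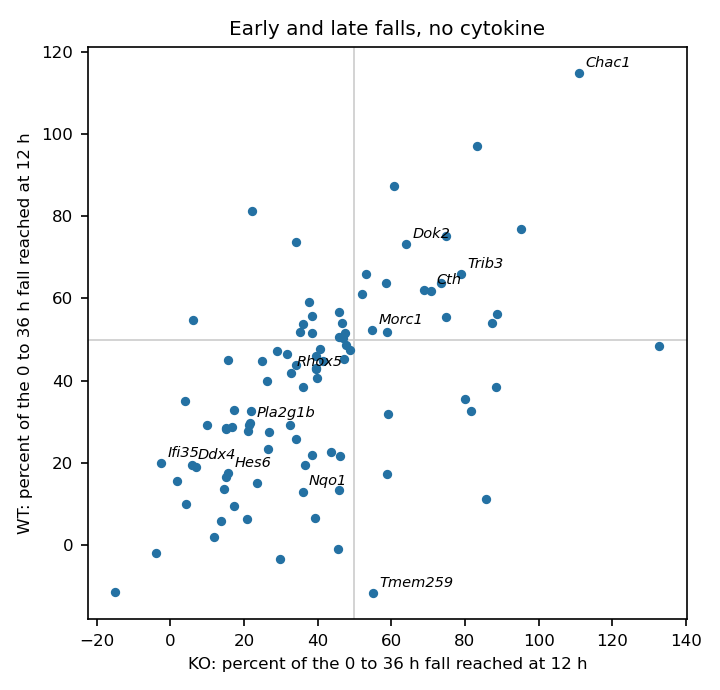
Each point is 1 of the 94 genes, with the percent of its untreated 0 to 36 h difference reached at 12 h in KO (horizontal) and WT (vertical); lines mark 50%. Chac1 lies past 100% in both lines, and Ddx4, Hes6 and Ifi35 lie under 25% in both.

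The first test asked whether the genes were still going down between 12 and 36 h on arrays that had no part in choosing them. Of the 94 genes 80 fell, none rose and 14 did not pass, while over all 13164 genes tested 19.2% fell and 17.4% rose. On the values as deposited, without quantile normalization, 76 fell and 2 rose. The median difference of the 94 genes was -1.13 on the log2 scale, against -0.03 over all genes. In all 5 cytokine conditions 75 of the 94 genes were lower at 36 h than at 12 h, as were 19.6% of the genes tested. The test was limma's moderated test with Benjamini-Hochberg adjustment over all genes, on quantile-normalized log2(signal + 16) from 19 arrays with an additive term for condition. With 1 array per condition and time, its p-values measure only the spread between these arrays, and 36 h is represented by the cytokine conditions alone. Summed epiblast markers ranged from 17595 to 36141 on the 36 h arrays of this test and from 32575 to 39473 on the 12 h arrays with cytokine, 8 of 8 measured, and summed extraembryonic endoderm markers from 499 to 2830 at 36 h and from 421 to 785 at 12 h. Summed nascent mesoderm markers ranged from 304 to 6952 at 36 h and from 353 to 985 at 12 h, trophoblast markers from 361 to 1731 and from 233 to 401, and neural ectoderm markers from 836 to 3251 and from 1401 to 2245. At 36 h Foxa2 alone gave 2385 of the endoderm sum of 2830, in KO titled BMP4+WNT3A. Hand1 alone gave 1261 of the trophoblast sum of 1731, in WT with BMP4. Nes alone gave 2419 of the neural ectoderm sum of 3251, in WT with WNT3A. Afp, Apoa1 and Ttr of the endoderm list and Elf5 of the trophoblast list did not exceed 50 on any array. The part of these marker sums in the fall was not tested.

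Below, values with cytokine are given in the order KO with BMP4, KO titled BMP4+WNT3A, KO titled WNT3A, WT with BMP4, WT with WNT3A. Pla2g1b, the pancreatic secreted phospholipase A2 gene, had 224, 132, 133, 138 and 177 at 36 h and 1105, 1235, 1184, 1121 and 1323 at 12 h. The times did not overlap, and the difference of -2.91 ± 0.10 (SE; adjusted p = 3.57e-10, limma) was the lowest of the set. Rhox5 had 105, 197, 140, 30.5 and 164 at 36 h and 1121, 955, 798, 1010 and 605 at 12 h, again without overlap, and fell by 2.89 ± 0.28 (adjusted p = 5.68e-06). Gdf3, a TGF-beta family ligand that signals with the Nodal coreceptor, had 249, 258, 413, 123 and 307 at 36 h and 1261, 1136, 1201, 1017 and 1201 at 12 h. It fell by 2.30 ± 0.16 (adjusted p = 3.16e-07), with WT with BMP4 lowest at 36 h and KO titled WNT3A highest. Rpp25, an RNase P subunit gene, had 208, 113, 161, 48.5 and 113 at 36 h and 560, 601, 530, 568 and 626 at 12 h and fell by 2.17 ± 0.22 (adjusted p = 9.07e-06). The signal of Rpp25 at 36 h was lowest in WT with BMP4. Of 9 tested genes of the core pluripotency list, 5 fell and none rose, where 19.2% of all genes fell and 17.4% rose. Gdf3 is the only gene of that list among the 94. The others that fell did so by less: Pou5f1 (-0.35), Tdgf1 (-0.52), Nodal (-0.39) and L1td1 (-0.95).

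**Figure D3:**
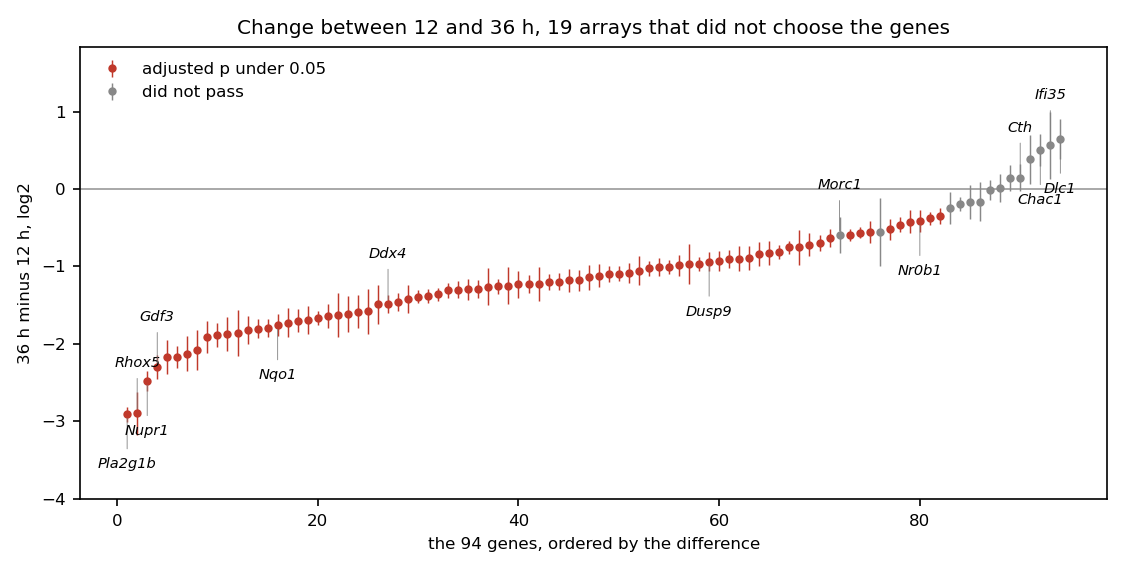
Difference between 36 h and 12 h (log2, limma, bars are SE) for the 94 genes in order, from 19 arrays that did not choose them. Red points passed an adjusted p of 0.05, 80 in all and all below 0; Ifi35 and Dlc1 are at the right end, above 0.

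The germline and meiosis list has 34 genes measured, of which 12 were past both limits without cytokine. Of these 6 are in the set, and D1Pas1, Gtsf1, Hormad1, Rhox6, Stag3 and Stk31 stayed out because no array exceeded 200. Those in the set are Rhox5, Rnf17, the transposon-silencing genes Tdrd12 and Tex19.1, the RNA helicase gene Ddx4 (Vasa) and the bHLH gene Sohlh2 of early oocytes and spermatogonia. All 6 fell between 12 and 36 h. Of the 19 list genes tested 12 fell, 1 rose and 6 did not pass, where 19.2% of all genes fell and 17.4% rose. The others that fell were D1Pas1, Stk31, Syce1, Rhox9, Gtsf1 and Stag3, while Trap1a rose by 0.78. Of all that fell, only Syce1 and Rhox9 had not been past both untreated limits, so the count is tied to the rule. Tdrd12 had 750, 290, 160 and 59.3 in untreated KO and 815, 239, 119 and 47.8 in untreated WT over the 4 times, and with cytokine 64.9, 63.6, 52.4, 12.9 and 74.5 at 36 h and 182, 263, 214, 122 and 278 at 12 h. It fell by 1.80 ± 0.13 (adjusted p = 3.41e-07, limma), and WT with BMP4 was lowest at both times. Ddx4 had 367, 338, 207 and 81.0 in untreated KO and 340, 249, 131 and 61.4 in untreated WT. Its cytokine arrays read 151, 98.4, 116, 73.0 and 105 at 36 h and 311, 317, 263, 271 and 292 at 12 h, with no overlap and a difference of -1.48 ± 0.11 (adjusted p = 7.88e-07). The differences were -1.67 ± 0.10 for Tex19.1, -1.30 ± 0.11 for Rnf17 and -1.10 ± 0.10 for Sohlh2. Rec114, needed for meiotic DNA breaks and not in the list, had 260, 85.6, 47.8 and 17.6 in untreated KO and 290, 100, 50.6 and 31.1 in untreated WT, and fell by 1.29 ± 0.12.

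Promoters were looked at as a description, since the rule itself chose the genes for a fall in both untreated lines. RefSeq promoters (GRCm38.p6) matched 76 of the 94 genes, and in the 250 bases before the start the E-box CACGTG, bound by bHLH factors such as MYC and MAX, stood in 12 of the 76 (15.8%), against 688 of 7648 bright genes (9.0%). Ddx4, Rec114 and Trim25 are examples, shown as 120 bases that end 1 base before the start, with the E-box in capitals.
Ddx4, chr13:112652311-112652430, minus strand: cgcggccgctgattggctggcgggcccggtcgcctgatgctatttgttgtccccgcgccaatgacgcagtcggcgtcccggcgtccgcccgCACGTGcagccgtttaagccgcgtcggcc
Rec114, chr9:58741560-58741679, minus strand: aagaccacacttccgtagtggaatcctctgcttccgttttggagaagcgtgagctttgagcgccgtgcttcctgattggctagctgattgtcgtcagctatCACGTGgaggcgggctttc
Trim25, chr11:88999283-88999402, plus strand: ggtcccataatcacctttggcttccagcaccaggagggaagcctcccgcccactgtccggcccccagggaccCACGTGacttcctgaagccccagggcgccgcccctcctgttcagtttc
The median CpG count in these 250 bases was 10 for the 76 genes and 17 for the 7648 bright genes. Both strands were searched for each motif, and a match is a description, not a binding site. The TEAD motif GGAATG stood in 6 of the 76 genes against 777 of 7648 (10.2%), the ETS motif CCGGAAGT in 3 against 505 (6.6%), the octamer ATGCAAAT in 2 against 93 (1.22%), and the CRE TGACGTCA in 0 against 225 (2.94%). Among the motifs searched, the octamer and the ATF4 motif can share bases.

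The amino acid response supplied Nupr1, Chac1, Cth and Trib3, 4 of 24 list genes measured, with 2 different courses. Nupr1, a stress-induced chromatin protein gene, had 1758, 891, 402 and 131 in untreated KO and 1585, 891, 391 and 189 in untreated WT, and with cytokine 113, 181, 91.8, 54.6 and 237 at 36 h and 601, 1193, 639, 413 and 989 at 12 h. It fell by 2.48 ± 0.12 between 12 and 36 h (adjusted p = 2.20e-08, limma). Chac1, which breaks down glutathione, had 2304, 468, 419 and 549 in untreated KO and 2665, 576, 545 and 704 in untreated WT, so all of its drop lay before 12 h. With cytokine it read 873, 560, 204, 771 and 639 at 36 h and 405, 416, 278, 237 and 352 at 12 h, higher at 36 h except in KO titled WNT3A, with a difference of 0.50 ± 0.21 that did not pass (adjusted p = 0.0712). Cth, cystathionine gamma-lyase of cysteine synthesis, had 5257, 2006, 1734 and 1342 in untreated KO and 4837, 2135, 1489 and 1287 in untreated WT. With cytokine Cth read 2091, 2241, 2539, 3444 and 2048 at 36 h, where WT with BMP4 was the highest, and 2876, 1820, 1911, 1687 and 1585 at 12 h, a difference of 0.15 ± 0.18 (adjusted p = 0.548). Trib3, a pseudokinase gene induced by ATF4, had 1911, 699, 495 and 534 in untreated KO and 2120, 929, 601 and 605 in untreated WT and fell by 0.72 ± 0.15 between 12 and 36 h. Of the 23 list genes tested 8 fell, 4 rose and 11 did not pass, where 19.2% of all genes fell and 17.4% rose. Ddit3, the stress factor CHOP, fell by 1.21 and the serine synthesis gene Psph fell by 0.51, while Atf3 rose by 1.13 and the asparagine synthetase gene Asns by 0.34.

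An ATF4 motif, TGATGNAAN, stood in 6 of the 76 promoters (Nupr1, Chac1, Gadd45g, Serpinf1, Tnnt1 and the gene model Gm9564), against 134 of 7648 (1.75%). Those of Chac1 and Nupr1 are shown as 120 bases of the 250 searched, because these are the response genes that carry it. The capitals mark the motif, which lies on the opposite strand in both, its first base at -194 in Chac1 and -111 in Nupr1 counted from the start.
Chac1, chr2:119350992-119351111, plus strand: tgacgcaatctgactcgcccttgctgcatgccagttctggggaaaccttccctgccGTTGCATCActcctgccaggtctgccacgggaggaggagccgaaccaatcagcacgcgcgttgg
Nupr1, chr7:126625522-126625641, minus strand: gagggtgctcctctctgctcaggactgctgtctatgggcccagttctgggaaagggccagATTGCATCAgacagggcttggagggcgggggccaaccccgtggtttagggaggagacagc
These letters are not in the same window of Trib3, and Cth had no matched promoter and was not searched.

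Of the oxidative stress list, 2 of 12 genes measured are in the set, Nqo1, a quinone reductase, and Gclm, a subunit of the enzyme that starts glutathione synthesis. Nqo1 had 1113, 613, 336 and 207 in untreated KO and 1128, 879, 274 and 157 in untreated WT. Its cytokine arrays read 282, 106, 208, 119 and 138 at 36 h and 719, 519, 474, 474 and 509 at 12 h without overlap, a difference of -1.76 ± 0.14 (adjusted p = 1.11e-06, limma). Gclm fell by 1.46 ± 0.12, and Cbr3, a carbonyl reductase, fell by 1.42 ± 0.18. Of the 11 list genes tested 5 fell and none rose, where 19.2% of all genes fell and 17.4% rose. The others of the list that fell were Gclc (-0.77), Gsta4 (-0.63) and Txnrd1 (-0.41). Pdk1, which restrains pyruvate dehydrogenase, is the only gene of 16 measured in the glycolysis and hypoxia list and fell by 1.61 ± 0.23. That list otherwise did not go down: of 16 tested 2 rose, P4ha1 and Ndrg1, and Pdk1 alone fell. Pdk1 was lower in KO at 12 h without cytokine, with 1992, 949, 588 and 282 in untreated KO and 2034, 1499, 440 and 502 in untreated WT over the 4 times.

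Of 16 measured genes of the naive pluripotency list 3 are in the set: the orphan nuclear receptor gene Nr0b1, the oocyte gene Ooep and Morc1, which silences transposons in male germ cells. Ooep had 676, 416, 260 and 165 in untreated KO and 644, 309, 212 and 152 in untreated WT and fell by 1.02 ± 0.09 between 12 and 36 h. Morc1 had 214, 65.3, 30.1 and 18.5 in untreated KO and 204, 69.5, 15.7 and 20.2 in untreated WT, and with cytokine 18.6, 91.1, 64.5, 10.3 and 82.1 at 36 h and 72.5, 80.5, 66.3, 49.2 and 64 at 12 h. At 36 h Morc1 was below its 12 h signal with BMP4 in both lines and close to it or above it in the other conditions, and the difference of -0.60 ± 0.23 did not pass (adjusted p = 0.0558, limma). Nr0b1 fell by 0.41 ± 0.15. Of the 16 list genes tested 4 fell and 3 rose, shares near the 19.2% and 17.4% of all genes.

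The genes not yet described were named after their values were seen, and they cover many functions. Among genes of germ cells, Hsf2bp, whose product binds BRCA2 in meiosis, fell by 1.09 ± 0.13. The acetyl-CoA carboxylase gene Acacb (-1.30 ± 0.14), the apolipoprotein genes Apoc1 (-1.26 ± 0.24) and Apoa2 (-0.89 ± 0.15) and Smpdl3b (-0.84 ± 0.16) all fell between 12 and 36 h. Blvrb, a biliverdin reductase, Gpx2, a glutathione peroxidase (-0.82 ± 0.15), and Gfer, a sulfhydryl oxidase of mitochondria (-1.23 ± 0.17), fell too, as did the steroid dehydrogenase gene Hsd17b14 (-0.38 ± 0.08).

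Further genes that fell were the adaptor genes Gab1 (-0.52 ± 0.13) and Lat (-0.97 ± 0.09), the cytokine receptor subunit gene Crlf2 (-1.14 ± 0.16), Arhgef3 (-1.18 ± 0.15), Rasip1, a Ras-interacting protein gene of vessels (-1.70 ± 0.15), and the myosin phosphatase inhibitor gene Ppp1r14a (-1.85 ± 0.30). So did the neurofilament gene Nefh (-1.72 ± 0.19), the slow muscle troponin gene Tnnt1 (-0.56 ± 0.14), the nephrin gene Nphs1 (-1.31 ± 0.10), Amn, the amnionless gene of vitamin B12 uptake (-1.58 ± 0.21), the Rh antigen gene Rhd (-1.25 ± 0.10), and Mfap5 of elastic microfibrils (-1.09 ± 0.10). The zinc finger genes Zfp593 (-1.69 ± 0.18), Zfp936 (-1.39 ± 0.09) and Zfp979 (-1.38 ± 0.09) and the histone gene H2aj (-1.87 ± 0.22) fell. The transcription factor genes Bach2 (-0.55 ± 0.44), Epas1, which encodes HIF-2 alpha (-0.17 ± 0.22), and Tcf15 (-0.16 ± 0.25) did not pass, nor did the coagulation inhibitor gene Tfpi (-0.24 ± 0.20) or Wdr34 (-0.19 ± 0.09). Of the rest Ydjc had the lowest difference (-2.13 ± 0.23) and Ttc39b the highest (-0.34 ± 0.10), and between them lay Hpdl, Prr23a3, Arrdc4, Mplkip, Fetub, Cnih2, Rps6kl1, Imp3, Serpinf1, the DNA repair gene Alkbh2, Ppef2, Mia, Gtsf1l and Wdr31, all of which fell. Tmem259, at the edge of the rule, fell by 1.25 ± 0.24. Its untreated courses differed in shape, with 1924, 1209, 750 and 826 in KO and 2062, 2353, 2385 and 666 in WT over the 4 times. Of the 5 gene models and unnamed transcripts, Gm13261 (-1.23 ± 0.12), Gm9564, 4930447C04Rik (-0.90 ± 0.16) and AI662270 fell and B230311B06Rik did not pass (0.14 ± 0.16).

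**Figure D4:**
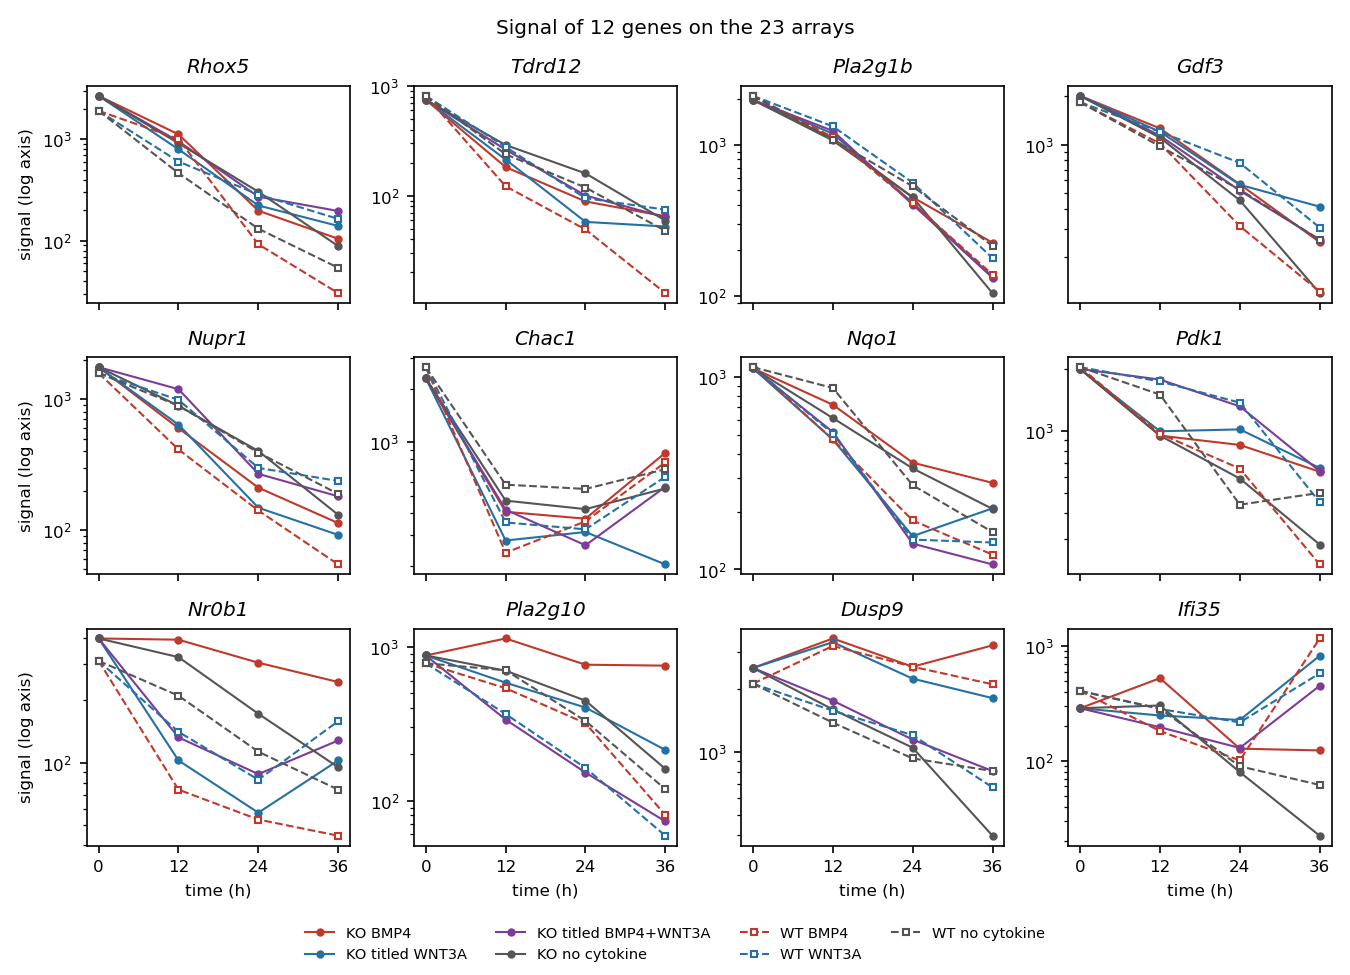
Signal (log axis) of 12 of the genes against time in culture in hours, 1 point per array; solid lines and filled circles are KO, broken lines and open squares are WT, colours are cytokines. Nr0b1 and Pla2g10 are highest in KO with BMP4 from 12 h on, Dusp9 is high in both lines with BMP4, Chac1 has its drop before 12 h, and Ifi35 is higher at 36 h than at 24 h in all cytokine conditions except KO with BMP4.

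Among the 14 genes that did not pass between 12 and 36 h, the highest differences were those of Dlc1 (0.65 ± 0.26, adjusted p = 0.0622), Ifi35 (0.56 ± 0.44, adjusted p = 0.333), Chac1 and Iqcg (0.38 ± 0.31, adjusted p = 0.361). The genes described here were chosen after their values were seen. Ifi35, an interferon-induced gene, had 288, 304, 79.9 and 22.3 in untreated KO and 407, 286, 89.9 and 61.8 in untreated WT, but with cytokine 124, 452, 826, 1168 and 580 at 36 h, above 0 h in all but KO with BMP4. At 12 h the same conditions had 526, 197, 249, 182 and 284. Trim25, a ubiquitin ligase gene of antiviral signalling, read 498, 942, 771, 861 and 1113 at 36 h and 553, 771, 719, 478 and 843 at 12 h, and was not below 0 h at 36 h in KO titled BMP4+WNT3A and WT with WNT3A. Iqcg, a gene of sperm flagella, was at 197 in KO titled BMP4+WNT3A and 234 in WT with WNT3A at 36 h and between 22.5 and 33.1 in the other cytokine conditions. Dlc1 was at 452 in WT with BMP4 at 36 h, above its 0 h signal of 393, and Depdc7 at 370 in KO with BMP4, above its 0 h signal of 350. None of the 14 interferon and antigen presentation genes measured is in the set. Between 12 and 36 h 10 of the 13 tested rose and none fell, with a median of 0.85. Over all genes 17.4% rose and 19.2% fell.

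A separate test asked whether the change between 12 and 36 h differed between the lines. At 36 h it used KO with BMP4, titled BMP4+WNT3A and titled WNT3A, and WT with BMP4 and with WNT3A. A difference between the lines thus cannot be told apart from one between their cytokine conditions. With the 6 arrays of conflicting labels left out, KO at 36 h is represented by BMP4 alone. No gene passed in limma's test of the line by time term, in the set or among all genes (0.00% in either direction; smallest adjusted p = 0.207). Counted at an unadjusted p under 0.05 were 17 of the 94 genes and 10.8% of all. Without the 6 arrays of conflicting labels 4 of the 94 genes passed, as did 1.29% of all genes.

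The lines were first compared without cytokine. At 12 and 24 h, the times the rule did not use, 1 of the 94 genes was higher in KO, none was lower and 93 did not pass, where 0.00760% of all genes tested were higher and 0.0152% lower. At an unadjusted p under 0.05 there were 15 of the 94, against 10.8% of all genes. The median difference, KO minus WT, was 0.03 over the 94 genes and 0.02 over all. The gene is the unnamed transcript AI662270, with 385 and 355 in KO at 12 and 24 h against 182 and 146 in WT, a difference of 1.08 ± 0.13 (adjusted p = 0.00870, limma). It no longer passed without the 2 arrays of highest Gapdh ratio in the fit, without the 6 arrays of conflicting labels, or without the 12 h or the 24 h arrays. A p that misses the threshold does not show that the lines are alike: for Rhox5 the difference was 0.99 ± 0.45 (adjusted p = 0.452), with 917 and 304 in KO against 465 and 132 in WT.

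With BMP4, of the 94 genes 28 were higher in KO, none was lower and 66 did not pass, where 5.05% of all genes tested were higher and 3.85% lower. The difference was above 0 for 78 of the 94 genes and below 0 for 16. The median difference, KO minus WT, was 0.44 on the log2 scale, against -0.01 over all genes, and by time it was 0.32 at 12 h, 0.36 at 24 h and 0.53 at 36 h. At all 3 times 54 of the 94 genes were higher in KO and 2 lower, as were 20.6% and 22.4% of all genes. The count falls to 4 with the 24 h arrays left out, to 15 with the 12 h arrays and to 21 with the 36 h arrays left out. Summed epiblast markers were 39473, 40410 and 36141 in KO with BMP4 at 12, 24 and 36 h against 32575, 30648 and 20673 in WT with BMP4. Summed nascent mesoderm markers, 6 of 6 measured with Kdr at most 50 on all arrays, were 353, 317 and 304 in KO against 950, 2268 and 6952 in WT, and trophoblast markers 401, 261 and 361 in KO against 331, 224 and 1731 in WT. Neural ectoderm markers were 2245, 2584 and 3166 in KO against 1517, 1211 and 836 in WT. At 36 h Nes gave 1489 in KO and 690 in WT, and Tubb3 gave 1351 in KO and 78.8 in WT. Pax6 read 220 in KO and 27.3 in WT, Sox1 39.1 and 8, Hes5 52.0 and 15.7, and Zic1 14.6 and 16.45. At 12 h Nes was at 798 in KO and 781 in WT. Of the trophoblast sum of 1731 in WT at 36 h, Hand1 gave 1261 and Cdx2 205. Plac1, Krt7, Ascl2 and Elf5 read 89.9, 82.1, 76.1 and 16.7 on that array. The part of these marker sums in the difference was not tested.

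Nr0b1 had 393, 304 and 246 in KO with BMP4 against 74.0, 53.1 and 44.3 in WT with BMP4 at 12, 24 and 36 h. Every KO array was above every WT array, with a difference of 2.15 ± 0.20 (adjusted p = 2.61e-05, limma). Pla2g10, a secreted phospholipase A2 gene, had 1144, 771 and 760 in KO against 541, 320 and 80.5 in WT, again without overlap (1.69 ± 0.27, adjusted p = 0.00140). The KO signal at 0 h was 885. Depdc7 had 380, 502 and 370 in KO against 170, 161 and 100 in WT (1.39 ± 0.13, adjusted p = 2.70e-05), the KO values all above the 0 h signal of 350. Tmem158 (1.32 ± 0.30, adjusted p = 0.0128) and Tesc (1.21 ± 0.35, adjusted p = 0.0423), a calcium-binding protein gene, had 276, 170 and 181 in KO against 164, 75.1 and 21.4 in WT for Tmem158 and 313, 153 and 164 in KO against 231, 61.0 and 21.7 in WT for Tesc. At each time both were higher in KO, and for Tesc the ranges of the lines overlapped across times. Neither passed without the 24 h or without the 36 h arrays, or with the mean over probe sets, where Tmem158 was at 0.36 (adjusted p = 0.228) and Tesc at 0.88 (adjusted p = 0.066). Tesc also missed with an offset of 1, with no filter, without the arrays of highest Gapdh ratio and without the 6 arrays of conflicting labels. The largest difference of the set was that of the gene model Gm9564, 3.12 ± 0.19 (adjusted p = 1.13e-06).

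**Figure D5:**
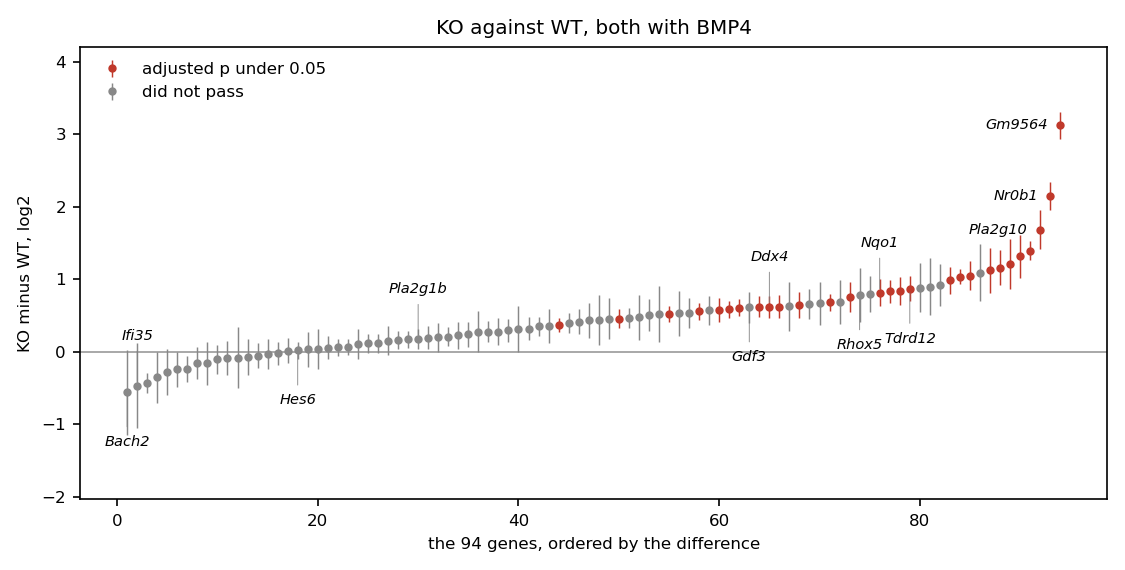
Difference KO minus WT with BMP4 (log2, limma, bars are SE) for the 94 genes in order, a mean over 12, 24 and 36 h. Red points passed an adjusted p of 0.05, 28 in all and all above 0.

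Germline and redox genes were among those higher in KO with BMP4. For the list counts below, 5.05% of all genes tested were higher and 3.85% lower. Tdrd12 had 182, 88.7 and 64.9 in KO against 122, 49.2 and 12.9 in WT, a difference of 0.87 ± 0.17, and Ddx4 311, 254 and 151 in KO against 271, 124 and 73.0 in WT, a difference of 0.62 ± 0.15. Of the 19 germline genes tested 6 were higher in KO, Tdrd12, Rnf17, Ddx4, Tex19.1, D1Pas1 and Tdrkh, none was lower and 13 did not pass. Rhox5 did not pass, with 1121, 198 and 105 in KO against 1010, 92.4 and 30.5 in WT (0.78 ± 0.37, adjusted p = 0.224, limma). Of the 11 oxidative stress genes tested 4 were higher and none lower. Nqo1 had 719, 360 and 282 in KO against 474, 180 and 119 in WT (0.81 ± 0.19, adjusted p = 0.0141), and Gclm (0.62 ± 0.16), Gstm1 (1.00) and Txnrd1 (0.33) were the others. Of 23 amino acid response genes 3 were higher, Nupr1 (0.58 ± 0.17), Mthfd2 (0.67) and Cebpg (0.34), and Atf5 (-0.49) was lower. The naive pluripotency list did not share the direction of Nr0b1: 1 of 16 was higher and 3, Gbx2, Tbx3 and Tfcp2l1, were lower. Of 9 core pluripotency genes Sox2 was higher by 2.20 and Nodal (-0.44) lower, and Gdf3 did not pass (0.61 ± 0.21, adjusted p = 0.0899). Of 16 glycolysis and hypoxia genes Bnip3 and Hk2 were higher and Egln3 lower, and Pdk1 did not pass (0.53 ± 0.31, adjusted p = 0.340). The other genes of the set that were higher in KO with BMP4 lay between Cbr3 (1.16 ± 0.24) and Wdr31 (0.37 ± 0.10). They were Dok2, the pattern recognition gene Nod1, AI662270, Tnnt1, Arhgef3, Cyct, Rps6kl1, Acacb, Zfp936, Zfp979, Lat, Gtsf1l and 4930447C04Rik. The lowest differences were those of Bach2 (-0.56 ± 0.58) and Ifi35 (-0.47 ± 0.58), neither of which passed.

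Set against untreated cultures of the same line, BMP4 in WT lowered 14 of the 94 genes and raised 1, where 1.31% of all genes fell and 1.23% rose. Those that fell include, with their log2 differences, Gm9564 (-3.51 ± 0.22), the stress gene Gadd45g (-2.00 ± 0.39), the exchange factor gene Rasgrp2 (-1.85 ± 0.44) and Dok2 (-1.41 ± 0.35). Also among them are Nupr1 (-1.29 ± 0.19), Nr0b1 (-1.28 ± 0.22), Tdrd12 (-1.17 ± 0.19), Gclm (-1.11 ± 0.18) and Tex19.1 (-0.89 ± 0.15). Gadd45g had 106, 27.9 and 117 with BMP4 at 12, 24 and 36 h against 584 and 214 without cytokine at 12 and 24 h. Only the 12 and 24 h arrays without cytokine enter, since the 36 h array chose the genes. The count of 15 changes to 1 without the 24 h arrays, to 3 without the 12 h arrays and to 9 without the 6 arrays of conflicting labels. In WT at 12 and 24 h the summed nascent mesoderm markers were 950 and 2268 with BMP4 against 355 and 651 without cytokine. Neural ectoderm markers were 1517 and 1211 against 2658 and 3785, and epiblast markers 32575 and 30648 against 37888 and 36235. Of the neural ectoderm sums, Tubb3 gave 630 and 215 against 1479 and 1965, and Nes 781 and 917 against 1038 and 1629. The part of these marker sums was not tested. This comparison shares the WT arrays with BMP4 with that between the lines, so the results are not independent.

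Dusp9, a phosphatase gene that restrains ERK and a known BMP target in embryonic stem cells, went the other way. Without cytokine it had 2521, 1596, 1046 and 396 in KO and 2120, 1380, 929 and 809 in WT over the 4 times. It had 3492, 2557 and 3236 in KO with BMP4 at 12, 24 and 36 h against 1596 and 1046 in KO without cytokine at 12 and 24 h. In WT it had 3214, 2557 and 2106 with BMP4 against 1380 and 929 without cytokine. It was higher with BMP4 in both lines, by 1.44 ± 0.20 in KO (adjusted p = 0.00785, limma) and by 1.36 ± 0.20 in WT (adjusted p = 0.00144), and every BMP4 array was above every untreated one at 12 and 24 h. In the test of time over all conditions it fell by 0.94 ± 0.13.

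In KO, BMP4 raised 2 of the 94 genes, Dusp9 and Depdc7 (by 0.87 ± 0.15), and lowered 2, Gclm (-0.91 ± 0.18) and Hes6 (-0.63 ± 0.13), where 0.319% of all genes rose and 0.327% fell. At an unadjusted p under 0.05 there were 19 of the 94, against 13.1% of all genes. None of the 94 passed without the 2 arrays of highest Gapdh ratio, without the 6 arrays of conflicting labels, or without the 12 h or the 24 h arrays, and 2 passed without the 36 h arrays. Whether the BMP4 response itself differed between the lines was tested directly, a test added after the data were seen. The difference passed for 1 of the 94 genes, the gene model Gm9564, where 0.0988% of all genes were higher and 0.114% lower, and for 23 at an unadjusted p under 0.05, against 8.73% of all genes. For Nr0b1 it was 1.60 ± 0.31 (adjusted p = 0.0531, limma), for Pla2g10 1.52 ± 0.43 (adjusted p = 0.254) and for Dusp9 0.08 ± 0.27 (adjusted p = 0.958). Among the 28 genes higher in KO with BMP4, a difference between the lines in the response to BMP4 thus passed for Gm9564 alone. That call ended without the 6 arrays of conflicting labels, and with the 12 h or the 24 h arrays left out.

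WNT3A in WT lowered 2 of the 94 genes, where 0.395% of all genes fell and 0.828% rose, and raised 1. Trim54, a muscle ring finger protein gene, had 101, 86.8 and 111 with WNT3A at 12, 24 and 36 h against 217 and 137 without cytokine at 12 and 24 h and fell by 0.86 ± 0.19 (adjusted p = 0.0414, limma). It no longer passed on the values as deposited, with an offset of 1, with no filter, without the arrays of highest Gapdh ratio, or with any 1 time left out (adjusted p from 0.0513 to 0.511). The other that fell was Gm9564 (-2.73 ± 0.22), and AI662270 rose by 1.28 ± 0.12. There were 25 of the 94 at an unadjusted p under 0.05, against 12.6% of all genes. Of the 94, 1 passed with the 24 h arrays left out and 6 with the 36 h arrays left out. The WT array with WNT3A at 24 h is that of the highest Gapdh ratio, and without the 2 arrays of highest ratio in the fit 2 passed.

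In KO titled WNT3A 16 of the 94 genes were lower than without cytokine and 1 was higher, where 4.19% of all genes were lower and 3.76% higher. Apart from Gm9564 (-3.64 ± 0.22), the lowest differences were those of Gadd45g (-1.70 ± 0.39), Tesc (-1.45 ± 0.39) and Nr0b1 (-1.35 ± 0.22). Dusp9 was higher, with 3350, 2241 and 1808 on these arrays (1.05 ± 0.20, adjusted p = 0.00495, limma). In KO titled BMP4+WNT3A 12 genes were lower and none higher, where 1.91% of all genes were lower and 1.88% higher. Apart from Gm9564 (-3.31 ± 0.22), Tesc (-1.61 ± 0.39), Tmem158 (-1.32 ± 0.34) and Pla2g10 (-1.31 ± 0.31) had the lowest differences, and Dusp9, with 1758, 1144 and 809, did not pass. Leaving out the 24 h arrays left 1 gene for each title, and leaving out the 12 h arrays left 4 for WNT3A and 3 for BMP4+WNT3A. Untreated KO at 24 h has a high Gapdh ratio, and with it and the other such array in the fit left out 2 genes passed for WNT3A and 1 for BMP4+WNT3A. The calls of Tesc for both titles and of Tmem158 for BMP4+WNT3A also ended with an offset of 1 and with no filter. All KO comparisons share the untreated KO arrays.

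Other probe sets of the same genes were looked at on the 4 arrays of the rule, so these values are a description. For 35 of the 94 genes 59 further probe sets name the gene alone, and 21 of these, for 18 genes, exceeded 200 on some array. Of the 21, 19 were lower at 36 h than at 0 h in both untreated lines and 16 passed both limits of the rule. Not lower in both lines were a further probe set of Gfer, at 0.06 in KO and 0.15 in WT, and that of Zfp593, at -0.74 in KO and 0.07 in WT. Further probe sets of Gdf3 (-0.85 in KO and -0.95 in WT) and Gclm (-0.75 in KO and -1.13 in WT) were lower but missed both limits. A further probe set of Dusp9 (-1.78 in KO and -1.08 in WT) missed the limit in WT, and another of Dusp9 passed. The probe sets that did not exceed 200 are not in these counts. Among them that of Mplkip was at -0.12 in KO and -0.21 in WT, and that of Rec114 at -1.66 in KO and -1.30 in WT. By position, 15 of the 94 genes (16%) lie on chromosome 7, against 7.56% of the 9311 bright genes, and none on chromosomes 15 or 18. Pml, the organizer of nuclear bodies, and Stoml1 are neighbouring genes on chromosome 9, and both fell between 12 and 36 h (-0.42 ± 0.15 for Pml and -0.46 ± 0.10 for Stoml1).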

How the data were processed

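RNA from epiblast-like cells and their aggregates was amplified as cDNA, biotin-labelled and hybridised to 23 Affymetrix Mouse Genome 430 2.0 arrays, per the labels' protocols. The authors deposited 1 linear intensity per probe set; the method behind it is not stated in the sources used here, and 2.93% of values stand at the floor of 1. The platform annotation gives 1 gene for 34958 of 45101 probe sets, several for 932 and none for 9211; only the first kind was used, with 1 probe set per gene (the highest mean over 23 arrays), and 34754 were matched to RefSeq by gene ID.

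Members were chosen on log2(signal + 16) as deposited. The members and the lists were chosen with earlier results of these data known, so no list gives independent support. Tests used limma 3.58.1 in R 4.3.3 (lmFit, eBayes with trend) on quantile-normalized log2(signal + 16), 13164 genes whose signal exceeded the array median on at least 3 of 19 arrays, all 94 members among them. The 4 arrays of the rule were left out. The model had 7 conditions and 3 times, with 10 residual degrees of freedom, 8 for the line by time test, and Benjamini-Hochberg adjusted p under 0.05 over all genes. Groups follow the titles. The number of arrays limits the precision.

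Named are the 12 members lowest at 36 h relative to 0 h, the members of lists, up to 5 (time, KO against WT with BMP4) or 3 members per direction with the largest passing difference in each test, and the 3 genes on each side of the rule's limit. Gene models were skipped unless a count was small. Alternatives were the values as deposited, offsets of 1 and 64, no filter, probe set means, leaving out times, conditions, the arrays of highest Gapdh ratio or the 6 arrays of conflicting labels, exchanged labels, and other limits in the rule. The steps were tested on simulated data. Figures were drawn with matplotlib 3.10.9 in Python 3.11.15.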

Additional observations from a re-analysis of the deposited data

Results flagged for a closer look

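The response to BMP4 differed between the lines for the gene model Gm9564, by a difference of 2.56 ± 0.30 on the log2 scale (KO minus WT, SE, adjusted p = 0.00636, limma). Its signal with BMP4 was 1428, 704 and 347 in KO against 168, 50.2 and 24.9 in WT at 12, 24 and 36 h, and without cytokine 2180 and 1698 in KO against 2034 and 803 in WT at 12 and 24 h. With BMP4 every KO array was above every WT array. It no longer passed without the 6 arrays of conflicting labels, and the 12 h or the 24 h arrays left out ended the call too. The gene was named after its values were seen.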

How the results depend on the processing

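The rule gave 94 genes as reported, 116 after quantile normalization (all 94 among them), 102 with an offset of 1, 71 with an offset of 64, 80 with probe set means (77 shared), 124 with a limit of -1.0 and 63 with a limit of -1.5. The number of the 94 genes past the threshold between 12 and 36 h lay between 76 and 81 under every alternative run. Leaving out times, or conditions for the test of time, gave 76 to 81 genes for time, 4 to 21 for KO against WT with BMP4 (15 with the 12 h arrays left out), 0 to 1 for the lines without cytokine, 1 to 14 for BMP4 in WT (3 with the 12 h arrays left out), 1 to 6 for WNT3A in WT, 0 to 2 for BMP4 in KO, 1 to 20 for titled WNT3A and 1 to 12 for titled BMP4+WNT3A in KO (3 with the 12 h arrays left out), 0 to 2 for the BMP4 response between lines, and 0 to 0 for the change over time between lines. Without the 2 arrays of highest Gapdh ratio in the fit the count was 0 for the lines without cytokine, 0 for BMP4 in KO, 2 for titled WNT3A and 1 for titled BMP4+WNT3A. Without the 6 arrays of conflicting labels it was 0 for the lines without cytokine, 9 for BMP4 in WT, 0 for BMP4 in KO, 0 for the BMP4 response between lines and 4 for the change over time between lines. With no filter it was 2 for BMP4 in KO and 7 for titled BMP4+WNT3A, with probe set means 2 for BMP4 in KO, with values as deposited 7 for titled BMP4+WNT3A and 2 for the BMP4 response between lines, and with an offset of 1 also 2 for that response. Fewer arrays lower the residual degrees of freedom; the cause of the other changes was not tested. Exchanging the titles of the 6 KO arrays only swaps the results of these groups, so its outcome was fixed in advance. With it, Dusp9 in KO titled WNT3A turned to -0.0032 and no longer passed. Likewise 12 genes passed for titled WNT3A and 17 for titled BMP4+WNT3A. Of 280 values of named genes under alternatives, 279 kept their direction, 188 of them also their side of the threshold, and 91 no longer passed. The value that turned was that of Dusp9 under the exchange of titles. Dim signal and absence were not told apart, as there are no detection calls.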
